A study of Mus musculus with 10 samples.

Results

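The neuronal intermediate filament genes are Nefl, Nefm, Nefh, Ina and Prph. They were taken as a named family, by symbol, from the 28059 gene identifiers counted in 10 RNA-seq libraries of embryonic mouse brain, and all 5 were found: Nefl (gene 18039), Nefm (gene 18040), Nefh (gene 380684), Ina (gene 226180) and Prph (gene 19132). The libraries came from E18.5 brains, close to birth, with the olfactory bulbs taken off, 2 for each of 5 genotypes. Controls were heterozygous for COP1 (control). The others lacked COP1 (KO), COP1 and cJun (DKO), COP1, cJun and ETV1 (TKO), or COP1, cJun, ETV1 and ETV5 (QKO), and these 4 are called the COP1 knockout genotypes below. No group was wild type at Cop1, since the controls carried 1 intact copy by their label. The sources used here do not give the Cre line behind the deletions, the cells it acts in, the litter or the sex of the embryos. They also do not say that both libraries of a genotype come from separate embryos. The 2 control libraries differ in sex by Xist and Uty (below), as do the 2 DKO libraries, so these came from separate embryos. For KO, TKO and QKO this is not known, and the distance within these genotypes may be technical. The p-values measure only how far these samples lie apart.

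Intermediate filaments are rope-like polymers that give long axons their calibre. In neurons the light chain encoded by Nefl forms the core, and the medium and heavy chains encoded by Nefm and Nefh add long phosphorylated tails that point away from the filament. Ina encodes alpha-internexin, which is abundant in young central neurons. Prph encodes peripherin, which is known from neurons whose axons leave the brain and spinal cord and from some brainstem nuclei. Nefh is known to come on late in neuronal maturation and to be high in neurons with large axons, such as motor neurons, sensory neurons and brainstem projection neurons.

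COP1 is a ubiquitin ligase adaptor that targets cJun and the ETS factors ETV1 and ETV5, so the letters to which AP-1 and ETS factors bind were looked for in the promoters. RefSeq's promoter table (build GRCm38.p6) held 2 of the 5 members, Ina and Prph, which are the members with the highest and the lowest level. The 250 bases before the start are shown for both, 5′ to 3′ on the plus strand, in lower case with a TATAAA match in capitals. Prph lies at chr15:99054924-99055173 and Ina at chr19:47014431-47014680.
Prph: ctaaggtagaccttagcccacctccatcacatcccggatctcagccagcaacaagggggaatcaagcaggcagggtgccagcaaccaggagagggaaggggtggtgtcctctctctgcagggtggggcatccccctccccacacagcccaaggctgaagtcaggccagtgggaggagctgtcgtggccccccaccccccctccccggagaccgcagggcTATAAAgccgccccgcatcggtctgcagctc
Ina: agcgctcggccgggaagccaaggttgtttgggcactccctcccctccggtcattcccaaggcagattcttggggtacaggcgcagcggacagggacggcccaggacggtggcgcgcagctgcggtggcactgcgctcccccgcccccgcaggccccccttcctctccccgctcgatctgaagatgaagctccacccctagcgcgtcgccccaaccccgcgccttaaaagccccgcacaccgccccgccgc
Both windows are rich in G and C, at 65.2% for Prph and 70.8% for Ina. On either strand, neither window holds the AP-1 letters TGANTCA (found in 6.75% of the 32851 promoters of the table), TGACGTCA (1.55%), or the ETS letters CCGGAAG (6.91%) and AGGAAGT (7.69%). TATAAA, which was looked for after the sequences had been seen, is in the Prph window and in 12.4% of all promoters, and not in the Ina window. These matches describe letters in a short window, and say nothing about binding.

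Library totals ranged from 31996944 to 54594523 counts, and the 5 members were counted well above the floor in every library, with between 15828 and 26247 counts for Ina and between 114 and 520 for Prph. All 12 pan-neuronal markers (among them Tubb3, Dcx and Stmn2) were detected in each library, and their summed level lay between 3437 and 3827 nRPKM, the deposited RPKM after scaling with a size factor. Of the targeted genes, Jun followed its label, with 14.99 and 15.0 nRPKM in controls against 1.44 to 2.94 in the libraries labelled DKO, TKO and QKO. Cop1 was at 5.0 and 4.74 in controls and at 3.57 to 4.39 in the other libraries, while Etv1 was at 3.67 to 4.71 in the libraries labelled TKO and QKO, above the 1.98 and 2.11 of DKO, and Etv5 at 3.97 and 4.11 in QKO, above 3.08 and 3.25 in DKO. Counts over a whole gene need not show the loss of an exon, so directions below rest on the labels. Control 1 and DKO 1 had the Xist level of female tissue (1848 and 1460 CPM, counts scaled to the library total) and the other 8 libraries did not (0.904 to 1.95 CPM). The Y-linked gene Uty was at 0 CPM in control 1 and DKO 1 and at 23.1 to 26.9 CPM in the other 8.

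The members spanned a wide range of levels. Per kilobase of gene model, Ina averaged 204 nRPKM over the 10 libraries, above 99.2% of the 18671 genes tested, Nefl 115 (98.1%), Nefm 53.1 (93.2%), Nefh 4.70 (42.5%) and Prph 3.74 (38.3%). In the summed level of the 5 genes, Ina therefore took 49.8 to 58.5% in the different libraries, Nefl 27.6 to 34.6%, Nefm 12.0 to 17.0%, Nefh 0.911 to 1.61% and Prph 0.409 to 1.47%. The spread between libraries ran in the opposite order: the highest library exceeded the lowest by 1.18-fold for Ina, 1.29-fold for Nefl, 1.57-fold for Nefm, 2.08-fold for Nefh and 4.19-fold for Prph. On the log2 CPM scale the SD of Prph over the libraries was above that of 98.5% of tested genes, that of Nefh above 86.9%, and that of Ina above 23.3%.

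**Figure D1:**
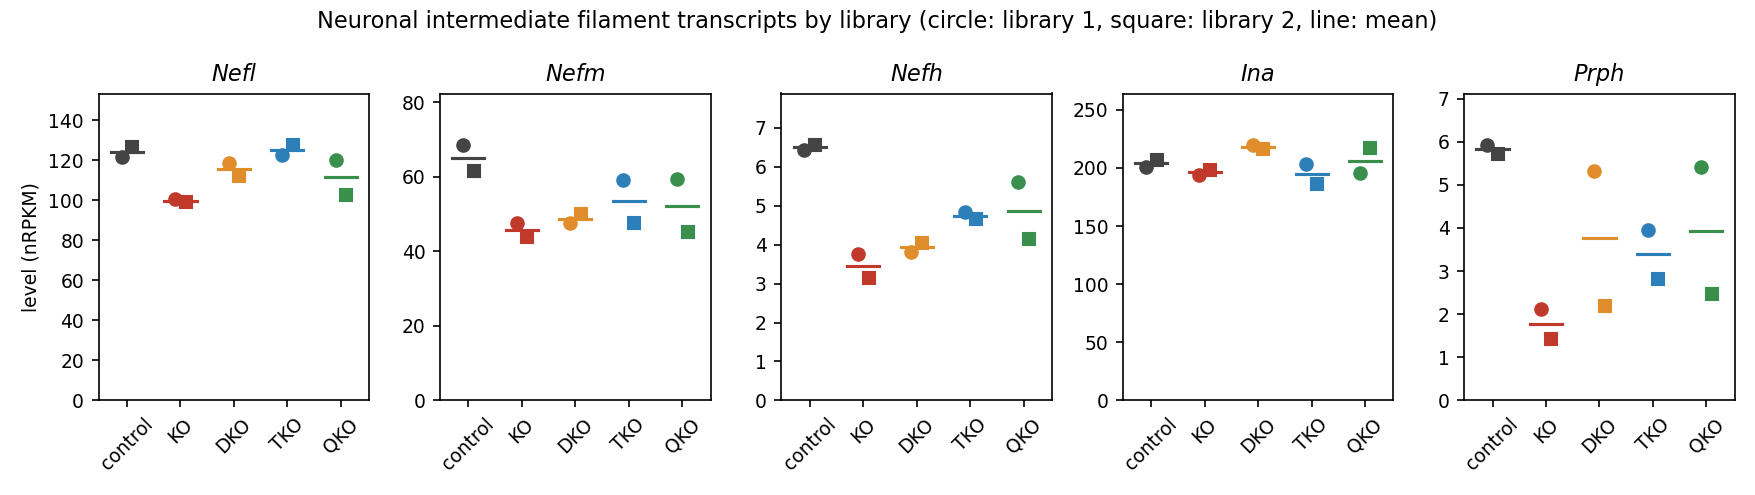
Level of each filament gene (nRPKM, linear axes from 0) in the 10 libraries, by genotype, with circles for library 1, squares for library 2 and a line at the mean of the 2. Both controls sit above all 8 other libraries for Nefm, Nefh and Prph, while Ina stays between 186 and 220.1 nRPKM throughout.

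Nefh, the heavy chain, was highest in the controls. It stood at 6.44 and 6.57 nRPKM in controls, 3.75 and 3.15 in KO, 3.81 and 4.05 in DKO, 4.84 and 4.66 in the libraries labelled TKO, and 5.62 and 4.13 in those labelled QKO. Both controls lay above every other library, and both KO libraries lay below every library of the remaining genotypes. The means ± SD (n = 2) were 6.50 ± 0.0953 in controls, 3.45 ± 0.425 in KO, 3.93 ± 0.166 in DKO, 4.75 ± 0.126 in TKO and 4.87 ± 1.05 in QKO, or 53.1, 60.4, 73.0 and 75.0% of the control mean in the COP1 knockout genotypes in that order.

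Prph, the peripheral-type filament, varied most, also between libraries of 1 genotype. It stood at 5.93 and 5.71 nRPKM in controls, 2.13 and 1.42 in KO, 5.33 and 2.19 in DKO, 3.96 and 2.82 in TKO, and 5.42 and 2.46 in QKO. The controls were again above all others, but DKO 1 and QKO 1 came within 1 nRPKM of them. The 2 libraries differed 2.43-fold in DKO and 2.21-fold in QKO, against 1.04-fold in controls. The KO mean of 1.77 ± 0.504 was 30.5% of the control mean of 5.82 ± 0.158.

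Nefm, the medium chain, showed a smaller difference of the same direction. Its levels were 68.6 and 61.7 nRPKM in controls, 47.7 and 43.8 in KO, 47.6 and 49.9 in DKO, 59.2 and 47.6 in TKO, and 59.3 and 45.2 in QKO. Controls did not overlap with any other genotype, while KO, DKO, TKO and QKO overlapped with their neighbours in the order of the means.

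Nefl, the light chain, lies beside Nefm on chromosome 14, with 1 pseudogene and 0 protein-coding genes between them. It stood at 122 and 126 nRPKM in controls, 101 and 99.0 in KO, 119 and 112 in DKO, 123 and 128 in TKO, and 120.3 and 102 in QKO. The KO libraries were the lowest, at 80.5% of the control mean, and TKO overlapped with control. In the libraries labelled TKO, the mean of Nefl was at 101% and that of Nefm at 82.0% of the control mean. For Nefm, TKO 1 (59.2 nRPKM) was near control 2 (61.7) and TKO 2 (47.6) was further below. Whether the neighbours differ from each other was not tested.

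Ina, the filament of young central neurons, was close to level. It stood at 201 and 207 nRPKM in controls, 194 and 199 in KO, 220.1 and 216 in DKO, 204 and 186 in TKO, and 195 and 217.5 in QKO. Group means lay between 95.5 and 107% of the control mean.

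The proportions of the chains differed with them. For every 100 units of Nefl, Nefh was at 5.29 and 5.20 in controls, 3.73 and 3.18 in KO, 3.21 and 3.61 in DKO, 3.95 and 3.65 in TKO, and 4.67 and 4.03 in QKO, so that both controls lay above all 8 other libraries. The ratio of Nefh to Nefl was lower in KO than in control by a log2 difference of -0.61, and that of Prph to Nefl by -1.43. The corresponding differences for Nefh were -0.62 in DKO, -0.47 in TKO and -0.27 in QKO, and for Prph -0.66, -0.81 and -0.51. Per 100 units of Nefl, Prph was at 4.88 and 4.52 in controls, 4.48 and 1.96 in DKO, and 4.50 and 2.40 in QKO. The Prph differences in DKO and QKO thus rest largely on library 2 of each. The ratio of Nefm to Nefl differed from control by -0.20 in KO, -0.31 in DKO, -0.30 in TKO and -0.17 in QKO. Here QKO overlapped with control, since QKO 1 (49.3 Nefm per 100 Nefl) lay above control 2 (48.8). TKO 1 (48.3) and KO 1 (47.3) were close below control 2. The ratio of Ina to Nefl differed by 0.26 in KO, 0.20 in DKO and 0.17 in QKO, and by -0.08 in TKO. With 2 libraries a group an exact permutation test cannot fall below 0.05, and these ratios are given as values without a test.

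KO against control addressed the loss of COP1. Among the members, Nefh fell 1.87-fold (log2 fold change -0.90 ± 0.13, the error being the SE, with edgeR's adjusted p = 0.0112 from 2 libraries a group). The other 4 did not pass at 0.05. Thus 1 of 5 was called lower, where 0.230% of all tested genes were. The values were -1.69 ± 0.41 for Prph (adjusted p = 0.117), -0.50 ± 0.13 for Nefm (0.144), -0.30 ± 0.08 for Nefl (0.154) and -0.05 ± 0.07 for Ina (0.876, 95% interval -0.21 to 0.11). With p left unadjusted, 4 of the 5 were lower at 0.05 (4.21% of tested genes), and DESeq2 put 3 lower (0.546%), Nefl, Nefm and Nefh. All 5 members had both KO libraries below both controls, which held for 25.0% of tested genes and so is a common outcome with 2 libraries a group. The median log2 fold change of the 5 was -0.50, against 0.0072 over all tested genes. The Nefh call was lost in each of the 4 fits that leave out 1 library (adjusted p from 0.0592 to 0.121), where its log2 fold change lay between -1.04 and -0.79, and without the 2 libraries with high Xist (-0.92 ± 0.16, adjusted p = 0.0505). It held with Xist as a covariate (-0.92 ± 0.15, adjusted p = 0.0284).

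**Figure D2:**
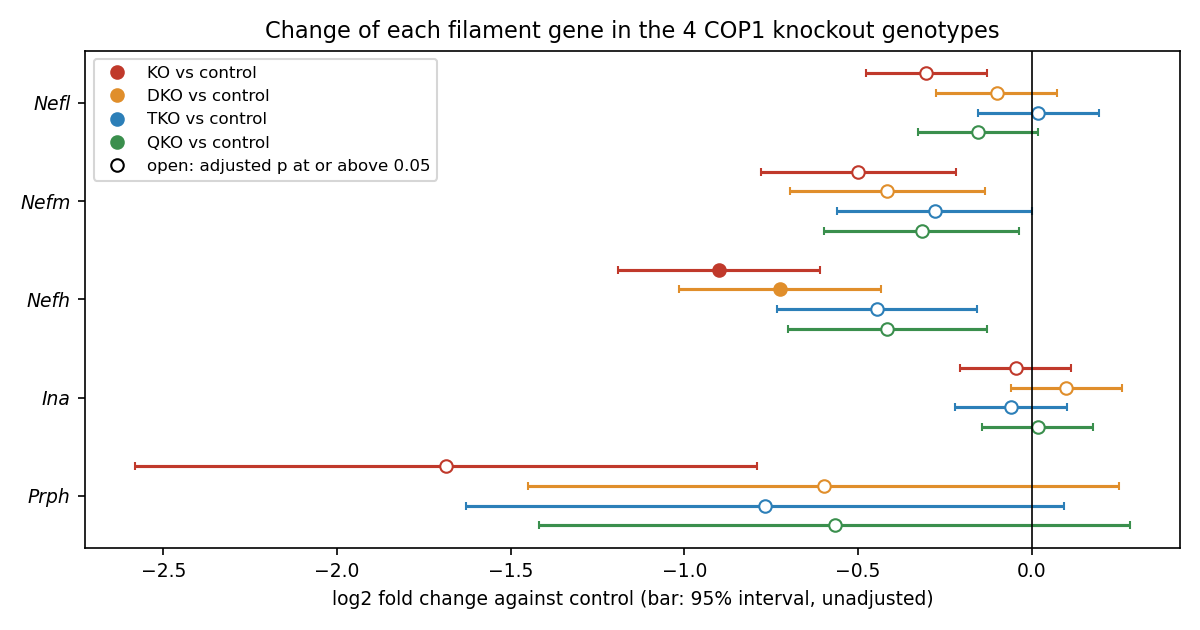
Log2 fold change of each filament gene against control in the 4 COP1 knockout genotypes, with unadjusted 95% intervals, where filled points passed an adjusted p of 0.05. Nefh in KO (-0.90) and in DKO (-0.73) passed, Ina stays near 0, and the intervals of Prph are the widest.

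DKO against control asked what differs when cJun is removed as well. Nefh fell here too, 1.65-fold (-0.73 ± 0.13, edgeR adjusted p = 0.0454), so 1 of 5 members was called, beside 0.123% of tested genes called lower. Nefm was at -0.42 ± 0.13 (adjusted p = 0.324), Prph at -0.60 ± 0.39, Nefl at -0.10 ± 0.08 and Ina at 0.10 ± 0.07. In this comparison 1 library of each group had high Xist. The Nefh call was lost in the 4 fits that leave out 1 library (adjusted p from 0.106 to 0.272). Nefm also passed by DESeq2, which gave 2 of 5 lower (0.225% of tested genes). These 2 were the members lower at an unadjusted 0.05 (3.86%). Both DKO libraries lay below both controls for 4 of the 5 members, Ina being the exception (19.9% of tested genes). Without the high-Xist libraries Nefh was at -0.70 ± 0.19 (edgeR adjusted p = 0.367).

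In the libraries labelled TKO and QKO the members did not pass against control. Nefh was at -0.45 ± 0.13 in TKO (edgeR adjusted p = 0.311) and -0.42 ± 0.13 in QKO (0.469), Nefm at -0.28 ± 0.13 and -0.32 ± 0.13, Prph at -0.77 ± 0.39 and -0.57 ± 0.39, Nefl at 0.02 ± 0.08 and -0.15 ± 0.08, and Ina at -0.06 ± 0.07 and 0.02 ± 0.07. edgeR and DESeq2 both called 0 of 5 in each comparison, where edgeR called 0.0428% of tested genes lower in TKO and 0.102% in QKO. Without adjustment, 1 member was lower at 0.05 in TKO, Nefh (4.27% of tested genes), and 2 in QKO, Nefh and Nefm (3.50%). Groups did not overlap, with the genotype lower, for 3 members in TKO (24.4% of tested genes) and 4 in QKO (18.0%). The 4 comparisons with control share the same 2 control libraries, so the common direction of Nefh in them is not independent.

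With the 4 COP1 knockout genotypes weighted equally against control, Nefh was the 1 member called, 1.54-fold lower (-0.62 ± 0.10, edgeR adjusted p = 0.0438), where 0.0589% of tested genes were called lower. Nefm was at -0.38 ± 0.10 (adjusted p = 0.219), Prph at -0.91 ± 0.29 (0.376), Nefl at -0.13 ± 0.06 (0.602) and Ina at 0.0025 ± 0.06 (0.996). Both controls were above all 8 other libraries for 3 of the 5 members, Nefm, Nefh and Prph, as for 3.15% of tested genes. At an unadjusted 0.05, 3 members were lower (3.97%), and DESeq2 put 2 lower, Nefm and Nefh (0.252%). The median log2 fold change of the 5 members was -0.38 here, -0.42 in DKO, -0.28 in TKO and -0.32 in QKO, against 0.0023 over all tested genes here and -3e-04, 0.0044 and 0.0013 in the others. The Nefh call rests on several single libraries: Nefh did not pass without control 1 (adjusted p = 0.373), control 2 (0.367), KO 2 (0.0599), TKO 1 (0.127) or TKO 2 (0.138), with the Xist covariate (0.0889) or without the high-Xist libraries (0.253), and its log2 fold change was between -0.68 and -0.57 over the 10 fits without 1 library.

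The stepwise comparisons asked what each further deletion changes. edgeR and DESeq2 called 0 of the 5 members in DKO vs KO, in TKO vs DKO and in QKO vs TKO, beside 0.568, 0.0911 and 0.289% of tested genes called by edgeR in either direction. At an unadjusted 0.05, 2 members were higher in DKO than in KO, Nefl and Prph (5.21% of tested genes), and 0 differed in the other steps. In DKO vs KO, Prph was at 1.09 ± 0.41 (edgeR adjusted p = 0.295), Nefl at 0.20 ± 0.08, Nefh at 0.17 ± 0.13, Ina at 0.15 ± 0.07 and Nefm at 0.08 ± 0.13. That Prph value rests on DKO 1, since DKO 2, at 2.19 nRPKM, was close to the 2.13 of KO 1. In TKO vs DKO, Nefh was at 0.28 ± 0.13 (edgeR adjusted p = 0.441) and Ina at -0.16 ± 0.07 (0.421). In QKO vs TKO, Nefl was at -0.17 ± 0.08 (0.863) and Nefh at 0.03 ± 0.13, with a 95% interval of -0.26 to 0.32.

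The 3 other comparisons among the COP1 knockout genotypes followed. In QKO vs KO, edgeR called 0 of 5 (1.29% of tested genes were called in either direction), with Nefh at 0.48 ± 0.13 (adjusted p = 0.131) and Prph at 1.12 ± 0.41 (0.301). These 2 members were higher at an unadjusted 0.05 (4.75%), and DESeq2 called 1, Nefh (0.600%). Without QKO 2, Nefh passed in edgeR as well (0.71 ± 0.11, adjusted p = 0.0192). In TKO vs KO, edgeR called 0 of 5 (0.332%), with Nefl at 0.32 ± 0.08 (adjusted p = 0.19) and Nefh at 0.45 ± 0.13 (0.317). These 2 were higher at an unadjusted 0.05 (3.58%), and DESeq2 called 1, Nefl (0.204%). In QKO vs DKO both tools called 0 of 5 (0.696% by edgeR), and Nefh, at 0.31 ± 0.13, was the 1 member with an unadjusted p under 0.05 (4.93%).

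Ranked by mean level, Nefh descended from control through QKO, TKO and DKO to KO. Each step between neighbours failed to pass, with edgeR adjusted p of 0.469, 1, 0.441 and 0.573, and the QKO and TKO libraries overlapped. Prph and Nefm also had control at the top and KO at the bottom, with adjusted p between neighbours of at least 0.638 and 0.489. Nefl had TKO and control at the top, which overlapped, and KO at the bottom, and Ina had DKO at the top and TKO at the bottom. For these 2 genes neighbours in the order had adjusted p of at least 0.544 and 0.734.

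Other cytoskeletal genes of the axon were near level in KO. edgeR and DESeq2 called 0 of 31 microtubule and axon cytoskeleton genes, such as tubulins, microtubule-associated proteins and spectrins, against control, with 1 higher and 1 lower before adjustment and a median log2 fold change of -0.05. Map1b, the most abundant of them, was at 0.16 ± 0.15. Of 29 genes of axonal transport motors, neurofilament kinases and neurofilament turnover, both tools also called 0, again with 1 each way before adjustment, a median of -0.03, and the kinesin gene Kif1a at 0.03 ± 0.10. Of 12 pan-neuronal genes edgeR called 0 (1 lower by DESeq2, and 1 before adjustment), with a median of -0.05 and Dcx at 0.07 ± 0.08. Of 12 cortical projection neuron genes edgeR called 0 (1 each way by DESeq2, and 1 each way before adjustment), with Bcl11b at 0.18 ± 0.09. In these 4 lists both tools called 0 genes in DKO, TKO and QKO against control, with at most 3 of a list in 1 direction at an unadjusted 0.05. The lists, like the others below, were drawn up with earlier results of these data known.

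Some intermediate filament genes of other cells rose in KO. Of 17 measured, 15 were tested and 3 rose, with a list median of 0.04, Gfap of astrocytes (1.99 ± 0.26), Vim (0.66 ± 0.07) and Nes (0.56 ± 0.08) of radial glia, with edgeR adjusted p of 0.00562, 0.00177 and 0.00981. The summed level of the 17 genes was 378 and 382 nRPKM in KO and 236 to 273 in all other libraries, so in KO the glial filament genes were high in the libraries where Nefh was lowest.

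Some markers of the hindbrain were also lower in KO. HOX genes are active in the caudal hindbrain and spinal cord. Of 13 on the list, 12 were tested and 6 fell in KO against control (7 by DESeq2, and 11 lower before adjustment). Among the 6 were Hoxa4 (-4.95 ± 0.94), Hoxa5 (-4.69 ± 0.89), Hoxa3 (-3.36 ± 0.60) and Hoxb3 (-3.24 ± 0.58). The summed HOX level was 13.5 and 18.3 nRPKM in controls, 1.81 and 0.756 in KO, 1.92 and 3.75 in DKO, 8.27 and 6.22 in TKO, and 13.8 and 2.23 in QKO. At most 2 of the 13 genes were at 0 in any library. Of 22 genes of brainstem and hindbrain neuron identity 2 fell in KO, among them Lbx1 (-1.83 ± 0.35), a factor of dorsal hindbrain and spinal neurons. DESeq2 put 6 of the 22 lower (0.546% of tested genes), and 12 were lower at an unadjusted 0.05 (4.21%). The list median against control was -0.33 in KO, -0.31 in DKO, -0.31 in TKO and -0.17 in QKO. The sum of the list was 108 and 111 nRPKM in controls, 87.2 and 88.1 in KO, and 84.2 to 98.4 in the other libraries, with 0 genes at 0. Of 9 motor and autonomic neuron genes 8 were tested and 1 fell (2 by DESeq2, and 3 lower before adjustment), with a median of -0.56. The sum of these 9 was 14.8 and 15.2 nRPKM in controls, 11.8 and 12.1 in KO and 12.3 to 15.5 elsewhere, and Mnx1, which defines somatic motor neurons, was at or near 0 (up to 0.0164 nRPKM). A smaller hindbrain share in a sample and less RNA per neuron cannot be told apart in bulk tissue.

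**Figure D3:**
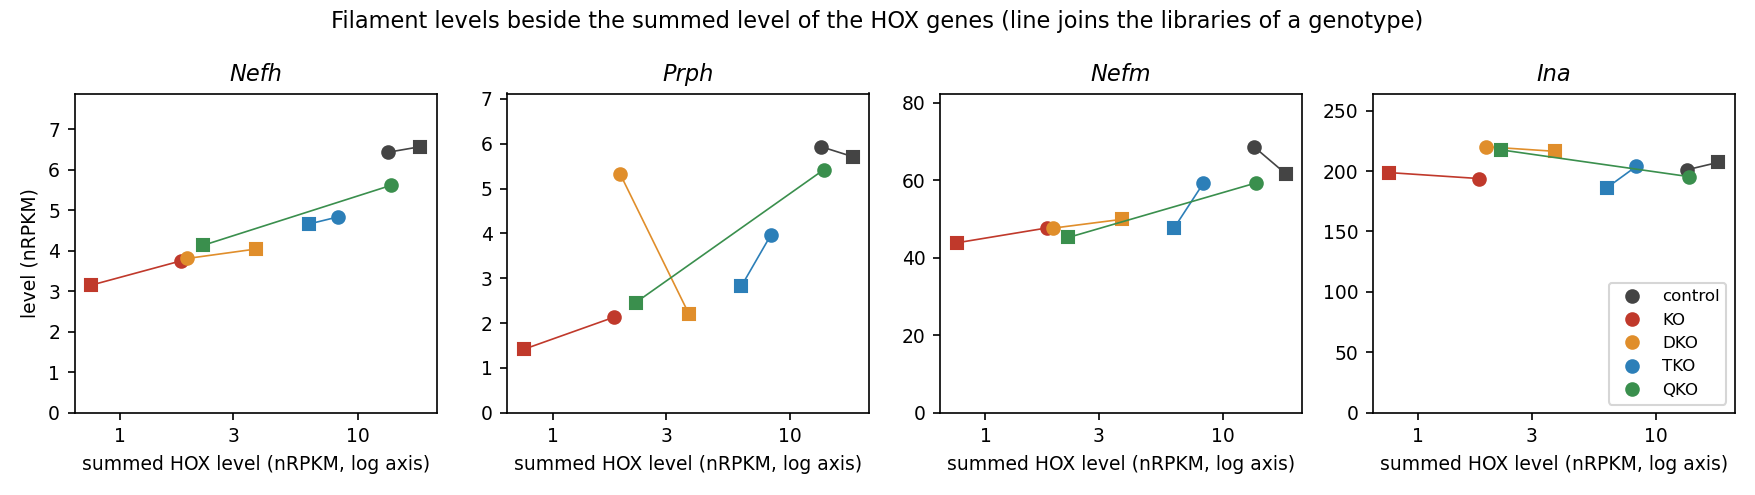
Level of Nefh, Prph, Nefm and Ina (nRPKM, axes from 0) against the summed level of 13 HOX genes (nRPKM, log axis), 1 point a library, with lines that join the 2 libraries of a genotype. Nefh is higher in the library with more HOX in each genotype, but by only 1.02-fold in control, 1.04-fold in TKO and 1.06-fold in DKO. Prph departs from this order in control and in DKO, where DKO 1 has 1.92 nRPKM of HOX and 5.33 of Prph. Ina is flat.

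Libraries of 1 genotype also differed in HOX level. QKO 1 and QKO 2 had 13.8 and 2.23 nRPKM of HOX, and Nefh was at 5.62 and 4.13, Prph at 5.42 and 2.46 and Nefm at 59.3 and 45.2. In all 5 genotypes the library with more HOX had more Nefh, an ordering shared by 3.4% of tested genes. That is close to the share that random order within 5 pairs gives, so the ordering does not set Nefh apart. The 2 libraries differed in Nefh by only 1.02-fold in control, 1.04-fold in TKO and 1.06-fold in DKO, and by 1.19-fold in KO and 1.36-fold in QKO. The same order held in 4 of 5 genotypes for Nefm, 3 of 5 for Nefl and Prph and 2 of 5 for Ina. With the mean log2 CPM of the 12 tested HOX genes as a covariate, Nefh in KO vs control was at -0.35 ± 0.14 (edgeR adjusted p = 0.229), Nefm at -0.03 ± 0.16, Nefl at -0.09 ± 0.12, Prph at -0.65 ± 0.65 and Ina at -0.19 ± 0.12, and 0 of 5 passed. In DKO vs control Nefh was at -0.30 ± 0.11 (adjusted p = 0.481), and over the 4 COP1 knockout genotypes at -0.28 ± 0.09 (0.213). HOX level differed between genotypes, so the covariate also takes up part of the difference between them, and the contributions of the 2 cannot be told apart in these libraries.

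**Figure D4:**
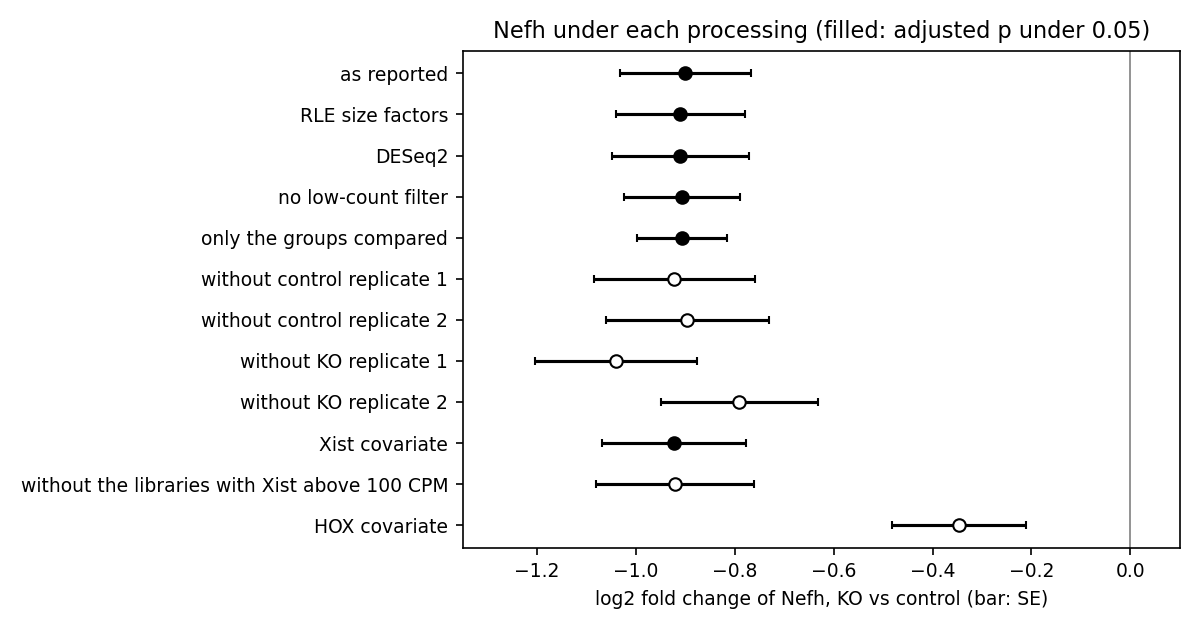
Log2 fold change of Nefh in KO against control, with SE bars, as reported and under 11 other ways of processing, where filled points passed an adjusted p of 0.05. The value stays between -1.04 and -0.79 except with the HOX covariate (-0.35), and open points include the 4 fits without 1 library.

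Genes of peripheral sensory neurons were examined because Prph is known from these cells. Among 8 such genes edgeR and DESeq2 called 0 in KO against control (3 lower before adjustment), and the sodium channel gene Scn9a was at 0.22 ± 0.21. Their summed level was 12.7 and 13.0 nRPKM in controls, 10.7 and 10.8 in KO, 12.6 and 10.9 in DKO, 12.3 and 11.1 in TKO, and 14.0 and 10.3 in QKO, with 0 genes at 0 in any library. Between the DKO libraries, which differed in Prph, 5 of the 8 were higher in DKO 1 and 3 were lower. Of these genes, singled out after their values were seen, Avil was at 1.10 nRPKM in DKO 1 and 0.598 in DKO 2, and the sodium channel gene Scn10a at 0.409 and 0.117. DKO 1 was the highest of the 10 libraries for these 2 genes, while Prph was at 5.33 there and 2.19 in DKO 2. Scn9a went the other way, at 2.29 in DKO 1, its lowest value in the 10 libraries, and 2.84 in DKO 2, and Trpv1 (0.0777 and 0.103) and Ret (3.3 and 3.34) were also lower in DKO 1. The part of attached sensory ganglia in the Prph level was not tested. Of 6 Schwann cell genes 1 rose in KO, Sox10 (1.02 ± 0.16), which oligodendrocyte precursors also express.

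The remaining lists hold genes of neurons known for high filament content. Of 18 genes of large projection and fast axon neurons 1 rose in KO, Spp1 (0.91 ± 0.17), which other cells also express, with a list median of 0.03. Before adjustment 2 were higher and 5 lower, and DESeq2 called 1 higher and 3 lower. The list also holds Vamp1, Syt2 and Chodl, which are named below among the genes most like Nefh or Nefm. Syt2 was at 2.79 and 3.02 nRPKM in controls and 1.76 and 1.49 in KO. Chodl was at 3.81 and 3.95 in controls and 2.88 and 2.66 in KO. Of 13 monoaminergic and hypothalamic neuron genes 1 rose, Oxt, the oxytocin precursor (1.78 ± 0.34), with a median of -0.18. DESeq2 called 0 genes of that list, where 1 was higher and 5 lower at an unadjusted 0.05.

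The genes with profiles most like those of the members were found by the root mean square difference between log2 CPM values, each centred on the gene's mean, over the 10 libraries. For Nefh they were Vamp1 (0.126), Mab21l2 (0.129), Syt2 (0.146), Slc30a3 (0.154) and C130021I20Rik (0.164). Vamp1 and Syt2 encode proteins of fast transmitter release and are known from brainstem and spinal synapses. Vamp1 stood at 6.59 and 7.04 nRPKM in controls, 4.71 and 3.83 in KO, 4.14 and 5.08 in DKO, 6.23 and 5.78 in TKO, and 6.60 and 4.16 in QKO. It was chosen for its likeness to Nefh in these libraries.

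For Prph the most alike genes were Sncg (0.281), Calca (0.318), Scn4b (0.368), Slc47a1 (0.37) and P2rx3 (0.405). Sncg encodes gamma-synuclein, Calca the peptide CGRP and P2rx3 a purine receptor, all known from sensory neurons, and Calca and Sncg also from motor neurons. Sncg was at 13.9 and 12.7 nRPKM in controls, 5.45 and 3.39 in KO, 8.57 and 8.22 in DKO, 8.89 and 7.51 in TKO, and 12.7 and 5.87 in QKO. P2rx3 was at 1.01 in DKO 1 and 0.426 in DKO 2. The direction was that of Prph, and Sncg differed by less between these libraries. The differences to Prph were larger than those to Nefh, but Prph also varied more (SD of log2 CPM 0.73 against 0.35). This measure grows with the spread of a gene, so it does not rank the 2 sets by closeness.

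For Nefm the most alike gene was A230070E04Rik (0.0453), a noncoding RNA gene that overlaps Nefm in RefSeq. Since the use of strand in the counting is not given in the sources used here, reads of the 2 genes cannot be told apart and the values of Nefm are uncertain to that extent. Ret (0.0875), the receptor of GDNF family factors, Skor2 (0.088), Chodl (0.0974), a gene of fast motor neurons, and C130021I20Rik (0.0984) followed, and the last is also among the 5 for Nefh. For Nefl they included Thbd (0.0545), Ggact (0.0586), Cdkl2 (0.0641) and Tacr3 (0.0647). Ina varied less than the median gene and was given no such list. Among the members, the smallest differences were between Nefl and Nefm (0.158), Nefl and Ina (0.161), and Nefm and Nefh (0.165). Ina was furthest from Prph (0.686), and these are the members with the least and the most spread.

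**Figure D5:**
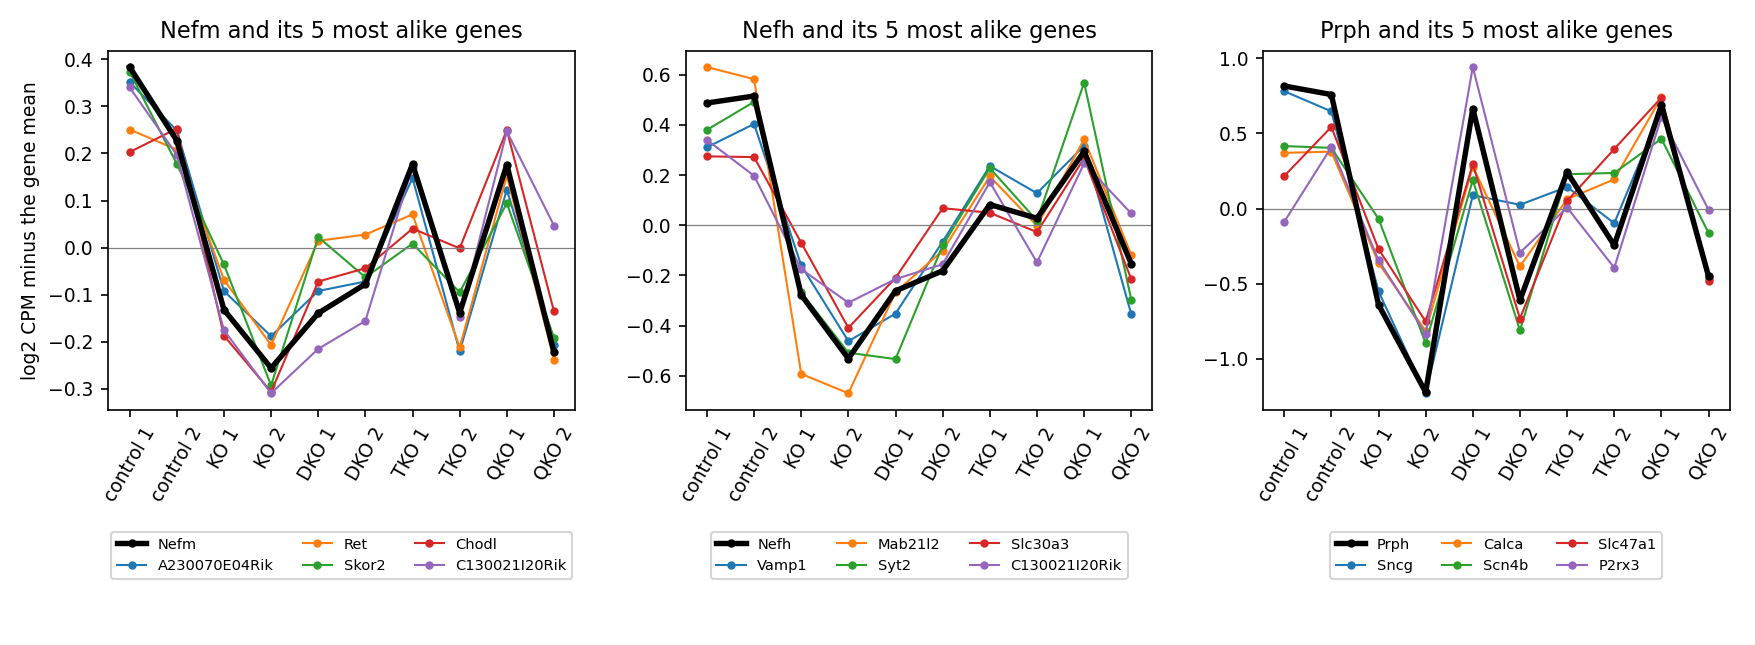
Log2 CPM minus the gene's mean in the 10 libraries for Nefm, Nefh and Prph (black) and the 5 genes with the smallest root mean square difference to each. QKO 1 lies above QKO 2 for all 3 members, and DKO 1 above DKO 2 for Prph.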

How the data were processed

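Reads were aligned with GSNAP to NCBIM37, per the submitters' processing notes. Per the file headers, the authors deposited for every gene a count of uniquely aligned reads and an RPKM adjusted by size factor (nRPKM). The sources used here give neither the annotation release nor the use of strand. Symbols came from RefSeq for GRCm38.p6, which named 24998 of 28059 identifiers (89.1%).

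Counts were tested with edgeR 4.0.16 (R 4.3.3) by its quasi-likelihood test, with 5 group means over all 10 libraries, TMM normalization, filterByExpr (18671 genes kept) and p-values adjusted by Benjamini-Hochberg over the whole tested table. The fit had 5 residual degrees of freedom and was tested on simulated data. Errors of log2 fold changes are SE from the F statistic. A floor of 3 counts corresponded to 0.055 to 0.0938 CPM, which covers counting error only. Alternatives were median-of-ratios (RLE) factors, DESeq2 1.42.0, no filter, fits of the compared groups alone, fits without 1 library, Xist or HOX covariates, and a fit without the libraries above 100 CPM of Xist.

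The members and gene lists were chosen with earlier results of these data known. Named were the members, the targeted genes, up to 4 called genes each way of a list, otherwise its most abundant gene, and for members with an SD above the median the 5 most alike genes with at least 1 CPM. Some genes that this rule selects are not reported here.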

Additional observations from a re-analysis of the deposited data

How the results depend on the processing

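Of 630 log2 fold changes of the 5 members recomputed under other settings, 570 kept direction and side of the threshold, 20 no longer passed, 23 newly passed and 17 changed sign, where a sign was counted if the value exceeded its SE in either fit. The number of members called moved as follows. In KO vs control (1 as reported) it was 3 by DESeq2, 4 without the low-count filter, 4 with the 2 groups alone, 0 without the libraries with high Xist, 0 with the HOX covariate and 0 to 0 over the fits without 1 library. In DKO vs control (1) it was 2 by DESeq2, 2 without the filter, 0 without the high-Xist libraries, 0 with the HOX covariate and 0 to 0 without 1 library. Over the COP1 knockout genotypes (1) it was 2 by DESeq2, 3 without the filter, 0 with the Xist covariate, 0 without the high-Xist libraries, 0 with the HOX covariate and 0 to 2 without 1 library. From 0 as reported it became 2 in TKO vs control with the groups alone, 1 in TKO vs KO by DESeq2, without the filter or with the groups alone, and in QKO vs KO 1 by DESeq2, 2 without the filter and 0 to 1 without 1 library. With the HOX covariate signs changed for Nefl (0.0629), Ina (-0.0056) and Prph (0.25) in DKO vs control, Nefm in TKO vs KO (-0.12), QKO vs KO (-0.0906) and TKO vs DKO (-0.0908), Prph in QKO vs DKO (-0.43) and Ina over the COP1 knockout genotypes (-0.0838), and without the high-Xist libraries for Prph in TKO vs DKO (0.64). Over the fits without 1 library, 14 of 55 ranges crossed 0, of which 7 held no sign counted as changed. The other 7 were -0.0173 to 0.38 for Nefm in QKO vs KO, -0.0337 to 0.28 for Nefm and -0.65 to 0.64 for Prph in TKO vs DKO, -0.65 to 0.84 for Prph in QKO vs DKO, and -0.25 to 0.15 for Nefm, -0.21 to 0.24 for Nefh and -0.48 to 0.67 for Prph in QKO vs TKO. The cause was not tested. A group left with 1 library is assumed to vary like the others. Differences between genotypes in the log2 ratios to Nefl are the same from CPM by construction, since gene length cancels, so CPM gives no check on them. Over all genes, calls in KO vs control went from 137 to 691 with the groups alone and to 23 without KO 1. No paired analysis was possible because the labels give no replicate numbers.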
